A study of Mus musculus with 18 samples.

Results

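The genes described here are 10 regulators and markers of satellite cells and muscle differentiation, chosen by name as a reading of regeneration: Pax7, Pax3, Myf5, Myod1, Myog, Myf6, Mymk, Mymx, Ncam1 and Cdh15. They are 10 of the 46725 genes in the deposited counts, and their levels were measured by RNA-seq in the gastrocnemius and the quadriceps of 9 mice of the FVB strain, all labelled as 20 weeks old. The 6 groups of 3 libraries were WT mice, HSA-LR mice labelled untreated and HSA-LR mice labelled with PIP6a-PMO treatment, in each of the 2 muscles. HSA-LR mice carry a human skeletal actin transgene with an expanded CTG repeat in its 3′ UTR, and the expression of the repeat RNA is restricted to skeletal muscle. Pip6a-PMO is an antisense oligonucleotide against the repeat, joined to a cell-penetrating peptide. The labels share 1 protocol for all groups, an injection of 160 µL of Pip6a-PMO or saline into a vein, and do not say which of the untreated mice received saline. The dose for the sequenced mice is not given in the sources used here.

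Satellite cells are the stem cells of skeletal muscle and lie between the fiber and its basement membrane. At rest they express Pax7, and a subset in some muscles also expresses Pax3. When a fiber is injured, they switch on Myod1, divide, and then express Myog and leave the cell cycle. Myomaker and myomixer, the products of Mymk and Mymx, then fuse the myoblasts into fibers, which express Myf6 as they mature. Myf5, Myod1, Myog and Myf6 are basic helix-loop-helix factors that bind the E-box, and the nuclei of adult fibers also make several of them, at levels that innervation lowers.

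RefSeq promoters (250 bases before to 50 after the start, build GRCm38.p6) were at hand for 4 of the 10 genes, Pax7, Myf5, Myog and Cdh15. The promoters of Myog and Cdh15 are shown because they hold the E-box letters that the myogenic factors bind, and Myog is a known target of Myod1 and of MEF2 factors. Capitals mark each E-box, written CANNTG and the same on both strands, and, in Myog, the MEF2 core. The Myog promoter lies at chr1:134289754-134290053 on the plus strand and that of Cdh15 at chr8:122848124-122848423 on the plus strand. The start meant here is that of RefSeq. The windows of Cdh15 and Pax7 lie within these genes as GENCODE places them.
Myog: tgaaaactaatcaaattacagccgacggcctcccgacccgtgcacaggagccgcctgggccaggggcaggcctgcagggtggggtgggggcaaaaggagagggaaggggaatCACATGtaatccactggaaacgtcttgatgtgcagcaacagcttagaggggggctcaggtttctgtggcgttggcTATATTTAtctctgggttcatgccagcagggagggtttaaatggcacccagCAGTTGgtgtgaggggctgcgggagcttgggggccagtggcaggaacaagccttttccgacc
Cdh15: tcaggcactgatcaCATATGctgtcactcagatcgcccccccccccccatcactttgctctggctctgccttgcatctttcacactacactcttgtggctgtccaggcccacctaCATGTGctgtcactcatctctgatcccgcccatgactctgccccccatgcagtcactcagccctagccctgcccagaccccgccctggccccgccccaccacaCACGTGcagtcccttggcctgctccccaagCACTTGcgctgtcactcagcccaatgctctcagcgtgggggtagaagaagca
The Myog window held 2 E-boxes, which begin 138 and 12 bases before the start, and 1 MEF2 core that begins 63 bases before it and overlaps neither. The Cdh15 window held 4 E-boxes, beginning 236, 135, 32 and 2 bases before the start. No E-box or MEF2 core stood in the Pax7 and Myf5 windows. E-box letters stood in 72.3% of the 32851 RefSeq promoters of this length and the MEF2 core in 9.32%, so these matches describe letters and not sites in use.

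Library totals ran from 98916844 to 143135976 counts, and TMM factors from 0.887 to 1.13. Genes of fast fibers led every library, with the 10 skeletal fiber markers summing to between 179914 and 314781 CPM, a scale on which the counts of a gene are divided by the TMM-adjusted total of the library. Treated gastrocnemius mouse 3 stood apart in coverage along transcripts, with a log2 ratio of the 5′ to the 3′ end of -0.36 against -0.045 to 0.084 in the other libraries. WT mouse 3 is labelled male, yet 4 genes of the Y chromosome summed to 1.14 CPM in its gastrocnemius and 1.43 CPM in its quadriceps, while the other 16 libraries held 134 to 188 CPM, those of WT mouse 2, labelled female, among them. These libraries go against their labels. The calls of the 10 genes between HSA-LR and WT mice are therefore given without WT mouse 3 too, or as a range over alternatives. Counts, medians and sums of gene lists, many single list genes and the genes most like Myog are given only with it.

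In WT muscle, compared per kilobase of exon, Myf6 led, Myog, Cdh15 and Myod1 followed, and Myf5, Mymk, Pax7, Mymx and Pax3 were lowest. Myf6, the factor of mature fibers, stood highest in the gastrocnemius, at 60.9 ± 20.3 CPM per kilobase (SD, n = 3), and no library of another member reached its range. Myog (8.43 ± 6.69), Cdh15 (7.77 ± 0.235) and Myod1 (7.04 ± 1.25 CPM per kilobase) followed with ranges that overlapped from one to the next. Ncam1 came below them, at 1.77 ± 0.734 CPM per kilobase, again without overlap. Myf5 (0.318 ± 0.0760), Mymk (0.267 ± 0.167), Pax7 (0.143 ± 0.0339), Mymx (0.115 ± 0.170) and Pax3 (0.0231 ± 0.0133 CPM per kilobase) formed the end of the order, each overlapping the next. Part of this order rested on WT mouse 3: without it, the gastrocnemius mean of Myog was 4.57 CPM per kilobase, below Cdh15 (7.88) and Myod1 (6.62). Without it Mymk was at 0.171 and Mymx at 0.0175 CPM per kilobase, the latter below Pax3 (0.0273). The quadriceps gave the same upper group, with Myf6 at 52.8 ± 9.14, Cdh15 at 7.27 ± 0.324, Myog at 6.85 ± 3.22, Myod1 at 6.74 ± 2.22 (Myog at 5.01 and Myod1 at 6.26 without WT mouse 3) and Ncam1 at 1.43 ± 0.204 CPM per kilobase. The 5 genes of the end ranged there from 0.109 ± 0.0184 for Pax3 to 0.427 ± 0.564 CPM per kilobase for Mymx, and the neighbours in their order overlapped. The low members rest on few counts: 52 to 200 raw counts per library for Pax7, 2 to 108 for Pax3, 27 to 120 for Myf5, 10 to 145 for Mymk and 0 to 210 for Mymx, against 6255 to 13468 for Myf6. Levels are sums over exon bins, the pieces of the annotated exons, and a read pair over several bins counts in each. Myf6, Myog and Myod1 have 3 bins each, Cdh15 has 14 and Ncam1 36, so the order between genes is approximate. Below, levels are given in CPM and are compared only within a gene.

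**Figure D1:**
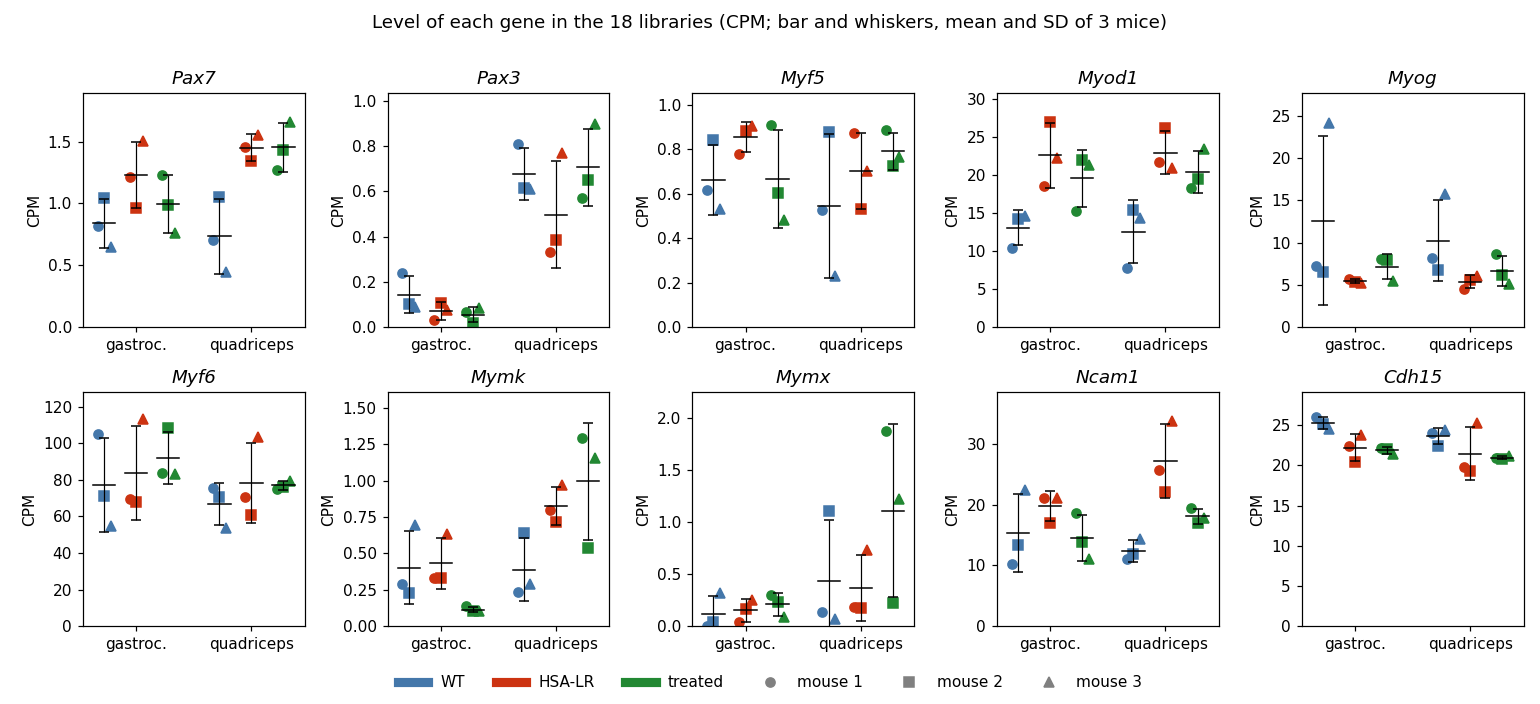
Level of each of the 10 genes in the 18 libraries, in CPM (each panel from 0), by muscle and group. Colors give the group and symbols the number of the mouse, and the bar and whiskers give the mean and SD of 3 mice. Myod1 is higher in every HSA-LR library than in any WT library, and WT mouse 3 stands above the other WT mice for Myog.

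The question put to the members was whether genes of satellite cells and of new fibers differ in HSA-LR muscle and whether treatment moves them. Between HSA-LR and WT mice, Myod1 rose in both muscles, Pax7 and Ncam1 rose in the quadriceps, and Myog fell in the quadriceps. Without WT mouse 3 the fall of Myog did not pass the test. Between treated and HSA-LR mice, Ncam1 fell in the quadriceps and Mymk fell in the gastrocnemius. A gene was called at an adjusted P under 0.1 in edgeR's quasi-likelihood test over all genes, with Benjamini-Hochberg adjustment, and all 10 members passed the filter on low counts in both muscles. In the gastrocnemius, 1 of the 10 members was called between HSA-LR and WT mice, against 15.5% of all genes tested (8.6% higher and 6.94% lower). In the quadriceps, 4 of 10 were called, 3 higher and 1 lower, against 20.3% of all genes (11% higher and 9.31% lower). Treated against HSA-LR mice gave 1 of 10 members in the gastrocnemius, where 10% of all genes were called (4.49% higher and 5.53% lower), and 1 of 10 in the quadriceps, where 13.8% were called (6.54% higher and 7.22% lower). The counts of 1 in 10 lie near or below the shares of all genes. The 4 of 10 in HSA-LR quadriceps lie above it, but without HSA-LR mouse 1 or HSA-LR mouse 2 the count was 2 of 10, and without WT mouse 3 it was 3 of 10. The share of all genes in the fits that left a mouse out is not given here. The median log2 fold change of the 10 members between HSA-LR and WT mice was 0.20 in the gastrocnemius and 0.30 in the quadriceps, beside -0.01 and 0.01 over all genes.

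**Figure D2:**
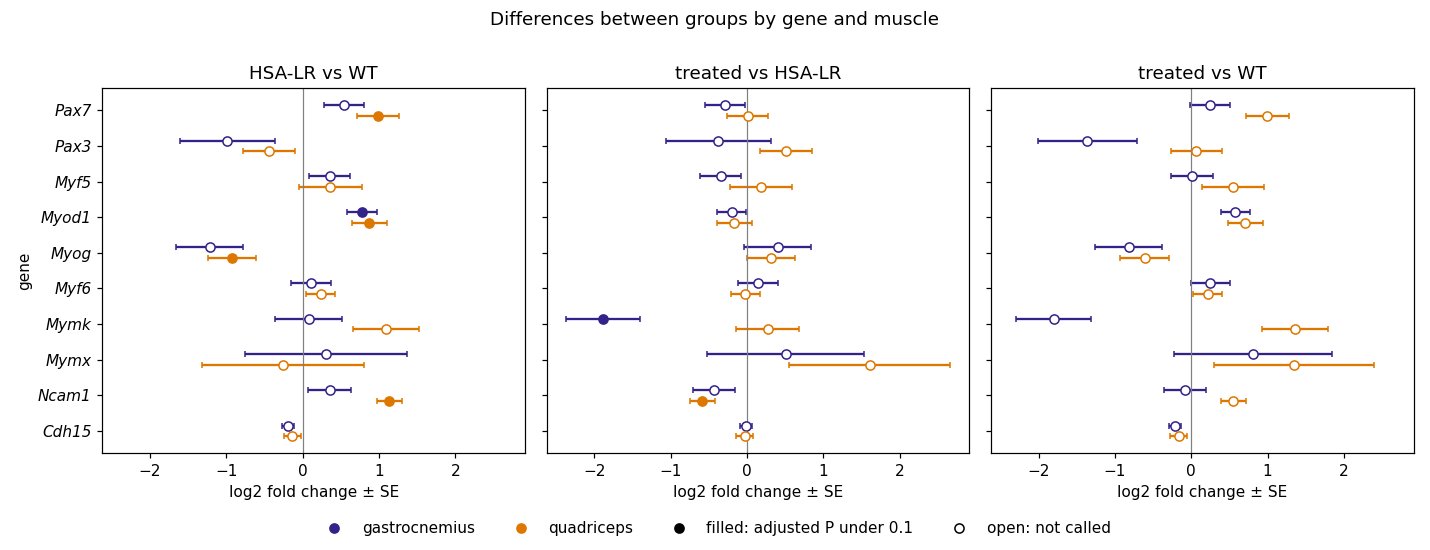
Log2 fold change with its standard error for each of the 10 genes in 3 comparisons and 2 muscles, from edgeR. Filled points passed the test over all genes. Myod1 lies to the right in both muscles in HSA-LR mice, Myog lies to the left, and the treated mice show 1 filled point in each muscle, Mymk in the gastrocnemius and Ncam1 in the quadriceps.

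Pax7 (ENSMUSG00000028736, chr4:139737062-139833528, minus strand, GRCm38) encodes the factor that marks satellite cells. In the quadriceps it stood at 0.703, 1.05 and 0.446 CPM in the WT mice, at 1.46, 1.34 and 1.56 CPM in the HSA-LR mice and at 1.27, 1.43 and 1.66 CPM in the treated mice. All HSA-LR and all treated libraries lay above the 3 WT libraries there. Pax7 rose in HSA-LR quadriceps by a log2 fold change of 0.99 (SE 0.28, adjusted P = 0.0484), and the treated mice differed from the HSA-LR mice by 0.01 (SE 0.27, adjusted P = 0.989). Without WT mouse 3, the lowest WT library, the rise was 0.73 (adjusted P = 0.0916). The call was lost without WT mouse 1 (adjusted P = 0.12), HSA-LR mouse 1 (adjusted P = 0.119) or HSA-LR mouse 3 (adjusted P = 0.108). The gastrocnemius held Pax7 at 0.820, 1.05 and 0.651 CPM in WT, 1.22, 0.967 and 1.5 CPM in HSA-LR and 1.23, 0.990 and 0.762 CPM in treated mice. The groups overlapped, and the difference between HSA-LR and WT mice was 0.54 (SE 0.26, adjusted P = 0.239). In bulk muscle, more Pax7 cells and more Pax7 RNA per cell cannot be told apart, and this holds for each gene below.

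Pax3 (ENSMUSG00000004872, chr1:78101267-78197134, minus strand) encodes the paralog of Pax7 that is active in the embryo and in the satellite cells of some muscles. Its levels parted the muscles rather than the groups. WT quadriceps held 0.809, 0.614 and 0.609 CPM, and WT gastrocnemius 0.238, 0.1 and 0.0900 CPM. The muscles did not overlap in any group, since HSA-LR mice had 0.334, 0.387 and 0.769 CPM in the quadriceps against 0.0308, 0.107 and 0.0760 CPM in the gastrocnemius, and treated mice 0.572, 0.648 and 0.897 CPM against 0.0682, 0.0161 and 0.0823 CPM. Between the muscles of WT mice, Pax3 was higher in the quadriceps by a log2 fold change of 2.25 (SE 0.48, adjusted P = 0.0936), the 1 member called of 10, against 0.297% of 16167 genes tested. That fit did not use the mouse as a block, and Pax3 was called with the mouse as a block too. With each WT mouse left out in turn the difference was 2.67, 2.11 and 2.08, with adjusted P values of 0.305, 0.506 and 0.3. The gastrocnemius levels rest on 2 to 29 raw counts per library. No difference of Pax3 between groups passed the test, at -0.99 (SE 0.62) in HSA-LR gastrocnemius and -0.44 (SE 0.34) in HSA-LR quadriceps against WT.

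Myf5 (ENSMUSG00000000435, chr10:107482908-107486134, minus strand), the factor of committed satellite cells and early myoblasts, showed no called difference. The WT mice had 0.615, 0.839 and 0.533 CPM in the gastrocnemius and 0.527, 0.878 and 0.231 CPM in the quadriceps. HSA-LR mice held 0.778, 0.882 and 0.904 CPM and 0.872, 0.530 and 0.702 CPM in the same order, and treated mice 0.909, 0.604 and 0.484 CPM and 0.885, 0.724 and 0.764 CPM. The 3 groups overlapped in both muscles. The difference between HSA-LR and WT mice was 0.35 in the gastrocnemius and 0.36 in the quadriceps (SE 0.27 and 0.41, adjusted P = 0.461 and 0.629).

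Myod1 (ENSMUSG00000009471, chr7:46376474-46379099, plus strand) encodes the factor that commits activated satellite cells to muscle, and adult fast fibers express it too. In the gastrocnemius it stood at 10.4, 14.2 and 14.7 CPM in WT mice, at 18.6, 27.1 and 22.3 CPM in HSA-LR mice and at 15.3, 22 and 21.4 CPM in treated mice. The quadriceps gave 7.83, 15.5 and 14.3 CPM in WT, 21.8, 26.2 and 21.0 CPM in HSA-LR and 18.3, 19.5 and 23.5 CPM in treated mice. In both muscles every HSA-LR and every treated library lay above every WT library, and the treated and HSA-LR libraries overlapped. Myod1 rose in HSA-LR mice by 0.78 in the gastrocnemius (SE 0.19, adjusted P = 0.033) and by 0.87 in the quadriceps (SE 0.23, adjusted P = 0.0382). Without WT mouse 3 the rise was 0.86 and 0.98 (adjusted P = 0.0459 and 0.0585). Both calls were lost without HSA-LR mouse 2, the highest library in each muscle (0.62 and 0.76, adjusted P = 0.125 and 0.122). Treated mice differed from HSA-LR mice by -0.20 (SE 0.19, adjusted P = 0.571) and -0.17 (SE 0.23, adjusted P = 0.679), and from WT mice by 0.58 (SE 0.19, adjusted P = 0.305) and 0.71 (SE 0.23, adjusted P = 0.262).

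Myog (ENSMUSG00000026459, chr1:134289989-134292548, plus strand) encodes myogenin, which drives terminal differentiation and also rises in fibers that lose their nerve. Its promoter is the first of those shown above. In the gastrocnemius the WT mice had 7.19, 6.48 and 24.1 CPM, the HSA-LR mice 5.75, 5.39 and 5.2 CPM and the treated mice 8.03, 7.97 and 5.42 CPM. In the quadriceps they had 8.17, 6.80 and 15.7 CPM, 4.49, 5.58 and 6.05 CPM and 8.63, 6.22 and 5.16 CPM. WT mouse 3 was the highest library in both muscles, and all HSA-LR libraries lay below all WT libraries. Myog fell in HSA-LR quadriceps by 0.93 on the log2 scale (SE 0.32, adjusted P = 0.0881) and differed in the gastrocnemius by -1.22 (SE 0.44, adjusted P = 0.119). Without WT mouse 3 these values were -0.47 (adjusted P = 0.252) and -0.34 (adjusted P = 0.285), so the quadriceps call rested on that mouse. The quadriceps call was also lost without any 1 of the 3 HSA-LR mice, and in 9 of 19 alternatives in all, while the sign stayed negative in every one. Treated mice differed from HSA-LR mice by 0.40 (SE 0.44) and 0.31 (SE 0.32), without passing the test.

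Myf6 (ENSMUSG00000035923, chr10:107492853-107494737, minus strand), which encodes MRF4 of mature fibers and lies beside Myf5, was the most abundant member and did not differ beyond its spread. Gastrocnemius levels were 105, 71.0 and 54.8 CPM in WT, 69.6, 68.0 and 113 CPM in HSA-LR and 83.9, 108 and 83.3 CPM in treated mice. Quadriceps levels were 75.7, 70.6 and 53.6 CPM, 70.7, 61.0 and 103 CPM, and 75.2, 76.0 and 79.6 CPM. The groups overlapped in every comparison, and treated quadriceps had the smallest spread, 76.9 ± 2.33 CPM (SD, n = 3). HSA-LR mice differed from WT mice by 0.11 (SE 0.26, adjusted P = 0.843) and 0.24 (SE 0.19, adjusted P = 0.48).

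Mymk (ENSMUSG00000009214, chr2:27061636-27072179, minus strand) encodes myomaker, the membrane protein that myoblasts need in order to fuse. The gastrocnemius held 0.287, 0.230 and 0.693 CPM in WT mice, 0.331, 0.330 and 0.633 CPM in HSA-LR mice and 0.136, 0.105 and 0.103 CPM in treated mice. The quadriceps held 0.237, 0.641 and 0.291 CPM, 0.798, 0.717 and 0.970 CPM, and 1.30, 0.539 and 1.15 CPM. The treated mice were thus the lowest group in the gastrocnemius, with no overlap, and held the highest libraries in the quadriceps. Mymk fell in treated against HSA-LR gastrocnemius by 1.88 on the log2 scale (SE 0.49, adjusted P = 0.0594), from 43 to 75 raw counts to 10 to 18. That call was lost without treated mouse 3, the library with low 5′ coverage (-1.83, adjusted P = 0.121), with coverage as a covariate (-1.84, adjusted P = 0.132), without treated mouse 2 (-1.82, adjusted P = 0.146) and without any HSA-LR mouse (-2.04 to -1.50, adjusted P = 0.116 to 0.16). In the quadriceps all HSA-LR libraries lay above the WT libraries, but the difference of 1.09 (SE 0.43, adjusted P = 0.133) did not pass the test. The change with treatment differed between the muscles by 2.16 (SE 0.67, adjusted P = 0.63).

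Mymx (ENSMUSG00000079471, chr17:45600971-45602102, minus strand) encodes myomixer, the small partner of myomaker in fusion, and was the most variable member. Gastrocnemius counts were 0, 5 and 46 in WT, 5, 21 and 30 in HSA-LR and 40, 29 and 9 in treated mice, and the count of 0 in WT mouse 1 allows up to 3 counts. The quadriceps gave 0.141, 1.11 and 0.0686 CPM in WT, 0.186, 0.179 and 0.728 CPM in HSA-LR and 1.88, 0.227 and 1.22 CPM in treated mice. Every pair of groups overlapped, the standard errors lay between 1.03 and 1.06 in the 4 comparisons with HSA-LR mice, and no difference passed the test.

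Ncam1 (ENSMUSG00000039542, chr9:49502136-49798925, minus strand) encodes the adhesion molecule of satellite cells, new or denervated fibers, neuromuscular junctions and Schwann cells. In the quadriceps it stood at 11.0, 11.8 and 14.4 CPM in WT mice, at 25.7, 22 and 33.7 CPM in HSA-LR mice and at 19.4, 17.0 and 17.8 CPM in treated mice. The groups did not overlap, with the treated mice between the other two. Ncam1 rose in HSA-LR quadriceps by 1.13 (SE 0.17, adjusted P = 0.00321), and this call held in all 19 alternatives (0.94 to 1.26). It fell in treated against HSA-LR quadriceps by 0.58 on the log2 scale (SE 0.16, adjusted P = 0.0659), and treated mice differed from WT mice by 0.55 (SE 0.16, adjusted P = 0.224). The fall lost its call in 6 of 19 alternatives, among them without HSA-LR mouse 3 (-0.39, adjusted P = 0.105), without any treated mouse and with coverage as a covariate (-0.56, adjusted P = 0.422). The gastrocnemius held 10.2, 13.3 and 22.5 CPM in WT, 21.1, 16.9 and 21.1 CPM in HSA-LR and 18.6, 13.9 and 11.1 CPM in treated mice, with overlap in each comparison. There the difference between HSA-LR and WT mice was 0.35 (SE 0.28, adjusted P = 0.482), and without WT mouse 3 it was 0.73 (adjusted P = 0.0844).

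Cdh15 (ENSMUSG00000031962, chr8:122847966-122867397, plus strand) encodes M-cadherin, which joins satellite cells to the fiber. It was the steadiest member, at 26.1, 25.2 and 24.5 CPM in WT, 22.4, 20.4 and 23.8 CPM in HSA-LR and 22.2, 22.1 and 21.4 CPM in treated gastrocnemius. Quadriceps levels were 24.1, 22.5 and 24.4 CPM, 19.9, 19.3 and 25.3 CPM, and 20.9, 20.8 and 21.2 CPM. In the gastrocnemius all HSA-LR and treated libraries lay below the WT libraries, by -0.20 (SE 0.08, adjusted P = 0.159) and -0.21 (SE 0.08, adjusted P = 0.405). These differences did not pass the test, nor did that of HSA-LR against WT quadriceps (-0.14, SE 0.11, adjusted P = 0.473).

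Treated mice were also compared with WT mice, to see which members were still apart after treatment. By edgeR none of the 10 was called in the gastrocnemius, where 1.04% of all genes were, and none in the quadriceps, where 1.41% were. At an unadjusted P under 0.05 the counts were 3 of 10 (Myod1, Mymk and Cdh15) and 4 of 10 (Pax7, Myod1, Mymk and Ncam1), beside 10.5% and 12.5% of all genes. DESeq2 called Mymk in the gastrocnemius and those 4 in the quadriceps, beside 529 and 748 genes in all, and limma called none of the members. Pax7 in treated quadriceps stood 0.99 above WT (SE 0.28, adjusted P = 0.199). The comparisons with WT use the same 3 WT libraries per muscle, so their values are not independent of each other.

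Whether the muscles differed in these changes was tested as an interaction over the 18 libraries, without the mouse as a block. A fit with the mouse as a block called 0 members in either interaction. No member was called for HSA-LR against WT mice, nor for treated against HSA-LR mice, by edgeR or limma, and 0% of the 16167 genes tested were called in either. At an unadjusted P under 0.05 there was 1 member of 10 in each, beside 4.39% and 7.86% of all genes. For HSA-LR against WT mice it was Ncam1, with a difference between the muscles of 0.77 (SE 0.35, adjusted P = 1). For treated against HSA-LR mice it was Mymk, given above. The larger rise of Ncam1 and the calls of Pax7 in the quadriceps are therefore not shown to be particular to that muscle.

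Counts along the genes were compared by exon bin, the pieces into which overlapping annotated exons are divided. Of the members' bins, 58 in 8 genes of the gastrocnemius and 66 in 9 genes of the quadriceps passed the filter. None was called in any of the 6 comparisons by edgeR's diffSpliceDGE, nor by limma, while 1.08%, 0.47% and 0.0596% of all bins were called in the gastrocnemius (HSA-LR against WT, treated against HSA-LR and treated against WT) and 0.531%, 0.371% and 0.055% in the quadriceps. At an unadjusted P under 0.05 there were 0, 0 and 1 member bins in the gastrocnemius and 1 in each comparison of the quadriceps. The bin with the smallest P of the members, chosen after its value was seen, is bin 35 of 36 from the 5′ end of Ncam1, an untranslated stretch of 2900 bases at chr9:49502148-49505047. It took 4.15%, 2.46% and 3.93% of the Ncam1 counts in WT quadriceps, 2.42%, 2.47% and 1.39% in HSA-LR and 2.81%, 3.41% and 3.74% in treated quadriceps. HSA-LR and WT libraries overlapped, and the relative log2 difference was -0.82 (adjusted P = 0.325), with a call only when WT mouse 2 was left out (-1.01, adjusted P = 0.0174).

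**Figure D3:**
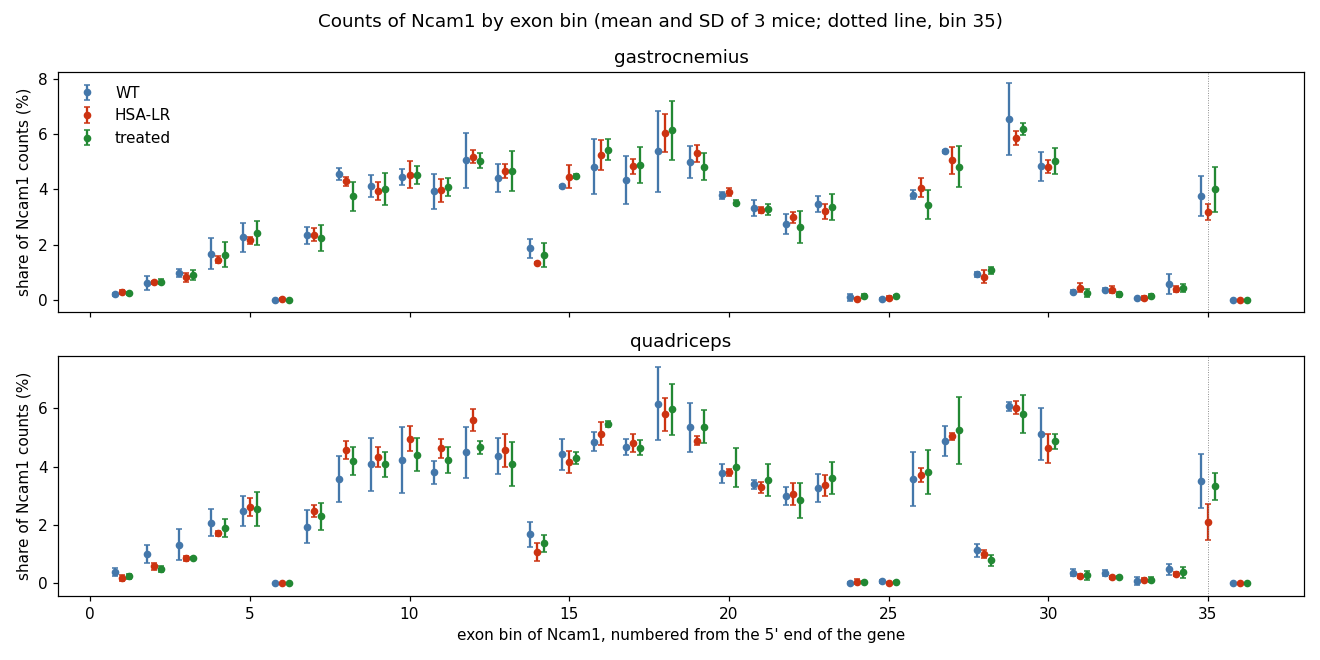
Share of the Ncam1 counts in each of its 36 exon bins, numbered from the 5′ end, in percent, by muscle and group. Points and whiskers are the mean and SD of 3 mice. The 3 groups run close to each other along the gene, with bin 35 in HSA-LR quadriceps (2.09 ± 0.612%) below WT (3.51 ± 0.920%).

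Some other genes of resting satellite cells rose in HSA-LR mice. Of 17 tested in a list of 18, 4 were called higher and 0 lower in HSA-LR gastrocnemius, and 3 higher and 2 lower in the quadriceps (23.5% and 29.4%, against 15.5% and 20.3% of all genes). Calcr, the calcitonin receptor that keeps satellite cells at rest, stood at 0.238, 0.258 and 0.173 CPM in WT gastrocnemius and at 0.508, 0.552 and 0.616 CPM in HSA-LR gastrocnemius. It rose by 1.31 (SE 0.25, adjusted P = 0.0116), a call that held in all 19 alternatives. Chodl, a membrane lectin, rose in the quadriceps from 2.59, 3.74 and 3.83 CPM to 6.83, 6.11 and 9.16 CPM (1.12, SE 0.21, adjusted P = 0.00953) and in the gastrocnemius by 0.71 (SE 0.16, adjusted P = 0.0253). Treated quadriceps kept Chodl at 8.64, 8.17 and 6.41 CPM, above WT by 1.2 (SE 0.21, adjusted P = 0.0534). Fgfr4, a growth factor receptor of myoblasts, rose by 0.77 and 0.92 (SE 0.17 and 0.30, adjusted P = 0.0186 and 0.0754). Vcam1, an adhesion molecule also made by endothelium, rose in the quadriceps by 0.61 (SE 0.17, adjusted P = 0.0462). Itga7, the laminin receptor subunit that fibers also make, fell there by 0.47 on the log2 scale (SE 0.08, adjusted P = 0.00778). With treatment, 2 of the list fell in the gastrocnemius and 1 in the quadriceps (11.8% and 5.88%, against 10% and 13.8% of all genes). Heyl, an effector of Notch, fell in the gastrocnemius by 0.79 (SE 0.18, adjusted P = 0.0372). Hes1, another, fell in both muscles (-1.53 and -1.09, SE 0.39 and 0.31, adjusted P = 0.057 and 0.0671), but limma called 0 of the list in the quadriceps. The list's median log2 fold change in HSA-LR mice was 0.23 and 0.44, and its summed level overlapped between the HSA-LR and WT groups in the gastrocnemius (282 to 298 against 270 to 318 CPM). In the quadriceps the sum went against the median, at 225 to 248 CPM in HSA-LR and 243 to 265 CPM in WT mice, with overlap.

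Of the genes of dividing cells, 14.3% were called in HSA-LR gastrocnemius, against 15.5% of all genes, and 6.67% in HSA-LR quadriceps, against 20.3%. Of the cell cycle genes tested, 14 in the gastrocnemius and 15 in the quadriceps, HSA-LR mice had Tk1 higher (0.61, SE 0.18, adjusted P = 0.0689) and Pcna lower (-0.27, SE 0.08, adjusted P = 0.0719) in the former and Mcm2 lower (-0.52, SE 0.13, adjusted P = 0.0269) in the latter. Mki67, the usual marker of division, named here after its values were seen, ranged from 0.122 to 0.367 CPM in WT and from 0.184 to 0.616 CPM in HSA-LR gastrocnemius, with overlap (0.56, SE 0.50, adjusted P = 0.543). In the quadriceps it ranged from 0.325 to 0.369 CPM in WT and from 0.278 to 0.493 CPM in HSA-LR mice (0.28, SE 0.40, adjusted P = 0.717). By edgeR, treated mice had 0 of these genes called in the gastrocnemius (1 at an unadjusted P under 0.05, 0 by limma and 1 by DESeq2) and Ccne1, a cyclin of entry into replication, lower in the quadriceps (-1.71, SE 0.29, adjusted P = 0.0137). That was 0% and 6.67% of the list, against 10% and 13.8% of all genes. The median log2 fold change of the list in HSA-LR mice was 0.28 in the gastrocnemius and 0.36 in the quadriceps, while its summed level went the other way. The sum was 46.6 to 47.0 CPM in HSA-LR gastrocnemius, below all WT libraries (50.3 to 57.3 CPM), and 46.4 ± 2.44 CPM in HSA-LR against 51.5 ± 6.44 CPM in WT quadriceps (SD, n = 3), with overlap.

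Genes of developing or regenerating fibers split. Of 13 tested, HSA-LR mice had 3 higher and 1 lower in the gastrocnemius and 4 higher and 2 lower in the quadriceps. These were 30.8% and 46.2%, against 15.5% and 20.3% of all genes. Myh8, the perinatal myosin, rose in the quadriceps from 6.22, 5.53 and 6.90 CPM to 13.7, 13.9 and 15.6 CPM (1.21, SE 0.11, adjusted P = 0.000325), and treated quadriceps held 9.75, 9.32 and 9.01 CPM between them. It fell with treatment there by 0.62 on the log2 scale (SE 0.11, adjusted P = 0.0154) and stayed above WT by 0.60 (SE 0.11, adjusted P = 0.0575). In the gastrocnemius Myh8 rose by 0.99 (SE 0.31, adjusted P = 0.0782). Myh3, the embryonic myosin and the common mark of fibers just formed, named after its values were seen, was at 3.12, 3.50 and 6.75 CPM in WT, 3.44, 1.93 and 7.25 CPM in HSA-LR and 6.69, 8.33 and 3.57 CPM in treated gastrocnemius. In the quadriceps it was at 1.49, 2.39 and 3.02 CPM in WT, 3.82, 3.41 and 5.99 CPM in HSA-LR and 6.68, 5.81 and 3.28 CPM in treated mice, with all HSA-LR and treated libraries above all WT libraries. Its difference between HSA-LR and WT mice was -0.10 (SE 0.49, adjusted P = 0.929) in the gastrocnemius and 0.94 (SE 0.34, adjusted P = 0.108) in the quadriceps. Actc1, the cardiac actin of fetal muscle, fell in HSA-LR mice, with log2 fold changes of -4.19 and -3.38 (SE 0.79 and 0.51, adjusted P = 0.0112 and 0.00367). Actc1 was again highest in WT mouse 3, at 288 CPM against 35.8 and 49.0 CPM in the gastrocnemius, and HSA-LR gastrocnemius held 6.51, 5.13 and 8.93 CPM. Without that mouse the log2 fold changes of Actc1 were -2.64 and -2.92 (adjusted P = 0.00367 and 0.00841). Mybph, a myosin-binding protein, rose in HSA-LR mice by 2.38 and 1.21 (SE 0.70 and 0.31, adjusted P = 0.0633 and 0.0345), and without WT mouse 3 by 3.99 and 1.63 (adjusted P = 0.000218 and 0.0085). Myl4, the embryonic light chain, rose in the quadriceps by 0.80 (SE 0.15, adjusted P = 0.00975). The median of the list was -0.10 and 0.43. In treated against HSA-LR mice 1 of the list was higher and 1 lower in the gastrocnemius, and 1 higher and 2 lower in the quadriceps. That was 15.4% and 23.1%, against 10% and 13.8% of all genes, with medians of -0.02 and 0.08. The list summed to 542 to 952 CPM in HSA-LR and 318 to 331 CPM in treated gastrocnemius. The quadriceps sums were 689 to 1072 and 417 to 617 CPM. HSA-LR and WT sums overlapped in both muscles.

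Genes that answer to loss of the nerve were read beside these, since Myog, Myod1 and Ncam1 belong to that response too. Of 15 tested, 4 were higher and 1 lower in HSA-LR gastrocnemius and 2 higher and 1 lower in the quadriceps. These were 33.3% and 20.0%, against 15.5% and 20.3% of all genes, so the quadriceps count lay near the share of all genes. Runx1, a factor of denervated fibers, stood at 1.91, 1.94 and 2.41 CPM in WT and 6.06, 4.81 and 7.41 CPM in HSA-LR gastrocnemius, and at 1.57, 2.15 and 1.35 CPM and 6.2, 5.48 and 7.35 CPM in the quadriceps. It rose by 1.53 and 1.91 (SE 0.18 and 0.20, adjusted P = 0.00103 and 0.000678), held in all 19 alternatives, and fell with treatment (-1.08 and -0.73, SE 0.18 and 0.19, adjusted P = 0.0125 and 0.056). Chrna1, the acetylcholine receptor subunit, rose by 1.49 in the gastrocnemius (SE 0.24, adjusted P = 0.00571) and by 0.43 in the quadriceps (SE 0.15, adjusted P = 0.0959). Chrng, the subunit of fetal and denervated muscle, which also stands in the list of developing fibers, rose in the gastrocnemius by 1.1 (SE 0.36, adjusted P = 0.0916). Mstn, which encodes myostatin, a brake on muscle growth, fell in both muscles (-0.92 and -0.76, SE 0.29 and 0.17, adjusted P = 0.0752 and 0.0198). Treated mice had 4 of the list lower and 0 higher in the gastrocnemius, and 2 lower and 2 higher in the quadriceps. That was 26.7% in each muscle, against 10% and 13.8% of all genes. Chrnb1 was among the lower in both (-0.72 and -0.60, SE 0.14 and 0.14, adjusted P = 0.0226 and 0.0431). The median of the list in HSA-LR against WT mice was 0.13 and 0.02.

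Of 17 partners and inhibitors of the myogenic factors tested, 2 were higher and 0 lower in HSA-LR gastrocnemius (11.8%, against 15.5% of all genes), and 2 higher and 2 lower in the quadriceps (23.5%, against 20.3%). Mef2c, the factor that acts with Myod1 and Myog, was at 547, 561 and 479 CPM in WT and 808, 831 and 797 CPM in HSA-LR gastrocnemius. It rose by 0.61 and 0.54 (SE 0.12 and 0.13, adjusted P = 0.0133 and 0.027) and fell in treated mice (-0.67 and -0.44, SE 0.12 and 0.13, adjusted P = 0.0171 and 0.0764). Id1, which blocks the E-proteins that pair with the myogenic factors, fell in the quadriceps by 0.74 (SE 0.22, adjusted P = 0.0531), and the coregulator Eya4 rose in the gastrocnemius by 0.78 (SE 0.25, adjusted P = 0.0887). Treated mice had 2 of 17 lower in the gastrocnemius, and 1 higher and 1 lower in the quadriceps. That was 11.8% in each muscle, against 10% and 13.8% of all genes. The median of the list in HSA-LR against WT mice was 0.02 and -0.12.

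**Figure D4:**
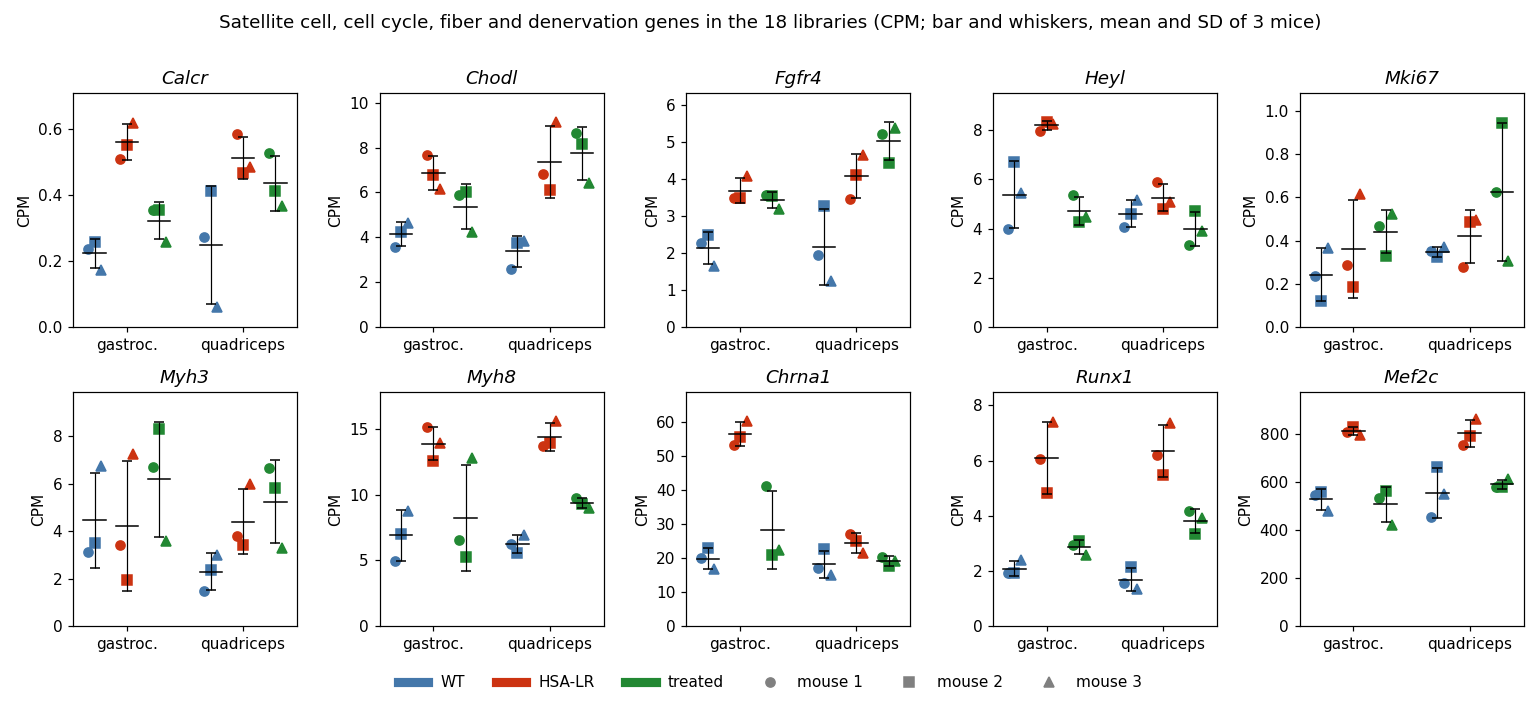
Level of 10 genes of satellite cells (Calcr, Chodl, Fgfr4, Heyl), division (Mki67), new fibers (Myh3, Myh8), denervation (Chrna1, Runx1) and the partner Mef2c in the 18 libraries, in CPM from 0, with the mean and SD of 3 mice. Runx1 and Mef2c lie higher in every HSA-LR library than in any WT library of the same muscle, while Mki67 overlaps between these groups in both muscles and Myh3 overlaps in the gastrocnemius and is higher in all HSA-LR libraries of the quadriceps.

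Markers of other cells moved with some of these groups, and their part in the results above was not tested. Beside the counts below, 15.5% and 20.3% of all genes were called in HSA-LR against WT gastrocnemius and quadriceps. In treated against HSA-LR mice the shares were 10% and 13.8%. The skeletal fiber, macrophage and fibro-adipogenic lists had 20%, 22.2% and 25% called in HSA-LR gastrocnemius, not far from the share of all genes. The macrophage markers, 9 of 9 detected, summed to 43.4 to 60.5 CPM in WT, 83.8 to 107 CPM in HSA-LR and 41.5 to 61.0 CPM in treated quadriceps, and 5 of them rose in HSA-LR and 6 fell in treated quadriceps. Their sums in the gastrocnemius were 56.7 to 77.5, 71.5 to 82.0 and 45.9 to 68.5 CPM, with 2 higher in HSA-LR and 3 lower in treated mice. Cd68, of macrophage lysosomes, rose in HSA-LR quadriceps by 1.35 (SE 0.23, adjusted P = 0.00608). Schwann cells make Ncam1 too, and which cells made its RNA here was not tested. Of the 10 Schwann cell and nerve markers, 5 fell in HSA-LR quadriceps, where they summed to 53.8 to 84.3 CPM against 96.0 to 122 CPM in WT. In treated quadriceps 4 of them rose and 1 fell (66.6 to 111 CPM). In the gastrocnemius edgeR, limma and DESeq2 called 0 of these 10 in HSA-LR against WT and in treated against HSA-LR mice (0 and 1 at an unadjusted P under 0.05). Their sums there were 99.8 to 126 CPM in HSA-LR mice, below all WT libraries (130 to 149 CPM), and 89.6 to 180 CPM in treated mice. Fibro-adipogenic markers (8 tested) had 4 higher in HSA-LR and 4 lower in treated quadriceps, and 1 higher and 1 lower in each comparison of the gastrocnemius. Endothelial markers (7) had 4 lower in HSA-LR quadriceps, and smooth muscle and pericyte markers (7) had 1 higher and 4 lower there, 1 higher and 2 lower in HSA-LR gastrocnemius, 1 lower in treated gastrocnemius and 1 higher and 1 lower in treated quadriceps. Of the adipocyte (8) and erythroid (5) markers edgeR called 0 in either comparison and muscle, with up to 3 and 4 at an unadjusted P under 0.05, up to 1 and 0 called by limma and up to 3 and 1 by DESeq2. The adipocyte sum ran from 129 to 1638 CPM in HSA-LR quadriceps. Slow fiber markers (8) had 6 higher in treated quadriceps, where their sum ran from 136 to 2303 CPM, and limma called 0 and DESeq2 8 of them there. Of the 10 skeletal fiber markers, 1 was higher and 1 lower in HSA-LR gastrocnemius, 5 were lower in HSA-LR quadriceps, and 5 higher and 1 lower in treated gastrocnemius and 4 higher in treated quadriceps. Their sum was 194892 to 209166 CPM in HSA-LR gastrocnemius, below all WT (215700 to 255120 CPM) and treated libraries (220144 to 314781 CPM). In HSA-LR quadriceps it was 179914 to 214742 CPM, again below WT (231259 to 258539 CPM) and treated libraries (227674 to 283971 CPM).

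The genes whose log2 CPM ran most like a member over the 18 libraries were sought among 15264 genes, as a description in which groups, muscles and mice are shared. For Pax7 they were Fgfr4 (Pearson r = 0.91), Abi2 (0.89) and Rap1gap2 (0.87). For Myod1 they were Zfp773 (0.88), Ccnq (0.85) and Anxa11 (0.85). For Myog, where WT mouse 3 weighs in both muscles, they were Atf6b (0.90), Bag2 (0.88) and Thbd (0.86).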

How the data were processed

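RNA was sequenced from polyA-selected, stranded libraries. Per the labels and the file headers, the deposited values are raw counts for each exon bin, not normalized. The submitters' processing notes name GRCm38, CASAVA, HISAT and featureCounts 1.5.0. Entries that name no gene (2.82% to 4.14%) were left out. Bins were summed per gene, so a pair over several bins counts in each and a sum is not a count of fragments.

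Genes passing filterByExpr (minimum count 10, minimum total 15) were TMM-normalized and tested with glmQLFit and glmQLFTest, 9 libraries of a muscle in 1 fit and 18 for differences between muscles, with Benjamini-Hochberg adjustment and a threshold of 0.1. Bins were tested with diffSpliceDGE. CPM used TMM factors over 18 libraries. R 4.3.3, edgeR 4.0.16, limma 3.58.1, DESeq2 1.42.0, Python 3.11.15 and pandas 2.3.3 were used. The scripts were tested on simulated data. Gene positions are from GENCODE M21 (GRCm38). Myf6 carries another version number there.

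The members and gene lists (resting satellite cell, cell cycle, developing fiber, denervation, partners, and 9 lists of fiber and other cell types) were chosen with earlier results of these data known. From each list, the text names up to 3 called genes with the smallest P per muscle in HSA-LR against WT and in treated against HSA-LR mice, and the 3 genes most like Pax7, Myod1 and Myog. Mki67 and Myh3 were added after their values were seen. Replicates are numbered in the labels and taken as separate mice, and muscles with the same number were assumed to come from the same mouse (deviations from the group means correlated with a median r of 0.253, over 0.1 in 8 of 9 pairs). Some genes of the lists were not analysed here, and 1 gene that the rule names is not reported here. Depth gives the counts stated beside each low gene, and P values cover the spread between 3 mice.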

Additional observations from a re-analysis of the deposited data

How the results depend on the processing

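The 90 values of the 10 genes in 9 comparisons were recomputed in 1481 alternatives: 1429 kept their side of the threshold (among them 75 sign changes of uncalled values, in 34 results), 33 lost a call, 19 gained one and 0 reversed. Leaving out 1 mouse at a time gave 0 to 2 called members for HSA-LR against WT gastrocnemius (1 with all mice), 2 to 5 for the quadriceps (4), 0 to 1 for treated against HSA-LR mice in each muscle (1 and 1), 0 to 1 for treated against WT quadriceps (0), 0 to 1 for WT quadriceps against gastrocnemius (1) and 0 to 1 member bins for HSA-LR against WT quadriceps (0). A filter of 1 count in any library gave 2 for HSA-LR against WT gastrocnemius (Myod1 and Myog). The largest bin of each gene gave 0 for treated against HSA-LR gastrocnemius, where Mymk was then not tested, 2 in the quadriceps (Pax3 and Ncam1) and 0 between WT muscles. With 5′ to 3′ coverage as a covariate, chosen after the data were seen, treated against HSA-LR mice gave 0 in both muscles. DESeq2 gave 1 and 4 for treated against WT gastrocnemius and quadriceps, where edgeR gave 0 and 0. Among the 121 called values of list genes, 489 of 2299 alternatives lost the call, 31 values held in all, and Myh2 in HSA-LR quadriceps turned from -1.72 to 0.15 with the largest bin. The causes of these changes were not tested.

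With the replicate number as a block, treated against WT gastrocnemius gave 1 call (Myod1, 0.57, adjusted P = 0.0995) and Myog lost its call in HSA-LR quadriceps. No other member's call changed. The numbers do not pair groups: deviations of same-numbered mice of different groups correlated with a median r of -0.0765 in the gastrocnemius (2 of 9 over 0.1) and 0.0821 in the quadriceps (3 of 9).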

Other observations

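WT mouse 3 stood apart from the other 2 WT mice in more genes of muscle differentiation than Myog. In its gastrocnemius Actc1 was at 288 CPM against 35.8 and 49.0 CPM, Mybph at 278 CPM against 39.7 and 37.2 CPM, Ncam1 at 22.5 CPM against 10.2 and 13.3 CPM, and Mymk at 0.693 CPM against 0.287 and 0.230 CPM. In its quadriceps Actc1 was at 368 CPM against 135 and 210 CPM and Mybph at 462 CPM against 216 and 246 CPM, while Pax7 (0.446 CPM), Myf5 (0.231 CPM) and Calcr (0.0600 CPM) were the lowest of the 18 libraries in that mouse. Runx1 did not stand apart there, at 2.41 CPM in the gastrocnemius and 1.35 CPM in the quadriceps. These genes were chosen after their values were seen, and no test was made of 1 mouse.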
